A study of Mus musculus with 72 samples.

Results

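The 8 genes described here, Ipcef1, Dhrs9, Runx1, Atp8b4, Ubd, Cd44, Cd84 and Tnfaip2, were chosen because their RNA in epididymal white adipose tissue (eWAT) rose on a high-fat diet in male mice born to normally fed dams and not in male mice born to food-restricted dams. They are 8 of the 55416 genes in the deposited count table, and each symbol matched 1 Ensembl identifier. Because the eWAT values chose the genes, their eWAT levels are a description with no test. Tests are given only for liver, for pituitary and for genes other than these 8. The lists of those other genes were drawn up with earlier results of these data known, so their eWAT tests are not independent of these data. The label held for 7 of the 8 genes, while Ubd was also higher on the high-fat diet in the offspring of restricted dams, though less so.

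RNA was sequenced from the eWAT, liver and pituitary of the same 24 male FVB.129P2 mice, a sighted form of the FVB strain, which gave 72 libraries. Dams of the FED group ate freely, and dams of the CR20 group received 20% less food from embryonic day 15 until weaning on postnatal day 21. From 8 weeks of age the sons ate a diet with 10% of calories from fat (CTRL) or 45% (HFD) for 10 weeks. The sample labels alone leave the length of the diet between 10 and 16 weeks. Each of the groups FED-CTRL, FED-HFD, CR20-CTRL and CR20-HFD held 6 mice, which are named here by group and animal number, and the litter of each mouse is not given in the labels. The p-values therefore measure the spread between mice, some of which may share a dam.

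White adipose tissue holds lipid-filled adipocytes together with vessels, stromal progenitors and immune cells, of which macrophages are the most numerous in obese animals. In obesity, macrophages gather around dying adipocytes, take up their lipid and secrete cytokines such as tumour necrosis factor (TNF), which acts through the transcription factor NF-kappaB. Several of the 8 genes are best known from immune cells or as targets of TNF and NF-kappaB. Runx1 encodes a DNA-binding transcription factor that is needed for blood cell formation. Cd44 and Cd84 encode surface receptors, the first for hyaluronan and osteopontin and the second a member of the signalling lymphocytic activation molecule (SLAM) family that binds to itself on neighbouring cells. Ipcef1 encodes a partner of the cytohesins, which activate the small GTPase Arf6. Ubd encodes the ubiquitin-like protein FAT10, Dhrs9 a short-chain dehydrogenase that acts on retinol and steroids, Atp8b4 a P4-ATPase that belongs to the phospholipid flippases, and Tnfaip2 a cytoplasmic protein that was found through its induction by TNF.

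The 8 genes lie on 6 chromosomes of the mouse genome GRCm39. Runx1 (ENSMUSG00000022952) spans 92398354 to 92623037 of chromosome 16 on the minus strand. Cd84 (ENSMUSG00000038147) spans 171667263 to 171720036 of chromosome 1 on the plus strand. Cd44 (ENSMUSG00000005087) spans 102641486 to 102732010 of chromosome 2 on the minus strand, and chromosome 2 also holds Dhrs9 (ENSMUSG00000027068, 69210776 to 69234877, plus strand) and Atp8b4 (ENSMUSG00000060131, 126162893 to 126342594, minus strand). Ipcef1 (ENSMUSG00000064065) spans 6835774 to 7002478 of chromosome 10 on the minus strand. Ubd (ENSMUSG00000035186) spans 37504783 to 37506987 of chromosome 17 on the plus strand, and its 932 exonic bases make it the shortest of the 8. Tnfaip2 (ENSMUSG00000021281) spans 111408858 to 111421452 of chromosome 12 on the plus strand.

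The 250 bases before the start of each gene's canonical transcript were searched on both strands for 6 short motifs. They were the general promoter letters TATAAA and motifs of factors that act in immune cells. Of the promoters, 3 are shown with every matching letter in capitals. The Ubd and Atp8b4 promoters are shown for their matches to the NF-kappaB motif, and the Runx1 promoter for a match to the motif of its own protein family. They were read from GRCm39, 5′ to 3′ on the strand of the gene, at chr17:37504533-37504782 (plus strand) for Ubd, chr2:126333503-126333752 (minus strand) for Atp8b4 and chr16:92623038-92623287 (minus strand) for Runx1. The windows of Atp8b4, Ipcef1 and Cd84 lie inside the span of their gene, since the canonical transcript starts later than the outermost annotated one.
Ubd: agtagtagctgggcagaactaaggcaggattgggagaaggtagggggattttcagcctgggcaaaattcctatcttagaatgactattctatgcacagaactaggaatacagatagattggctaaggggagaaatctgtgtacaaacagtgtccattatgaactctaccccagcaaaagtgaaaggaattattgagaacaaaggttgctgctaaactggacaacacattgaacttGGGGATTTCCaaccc
Atp8b4: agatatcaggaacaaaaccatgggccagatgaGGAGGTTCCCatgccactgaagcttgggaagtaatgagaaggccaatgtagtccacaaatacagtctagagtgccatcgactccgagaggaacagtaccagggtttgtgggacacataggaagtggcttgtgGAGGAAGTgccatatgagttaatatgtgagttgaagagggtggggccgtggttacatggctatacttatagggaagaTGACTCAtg
Runx1: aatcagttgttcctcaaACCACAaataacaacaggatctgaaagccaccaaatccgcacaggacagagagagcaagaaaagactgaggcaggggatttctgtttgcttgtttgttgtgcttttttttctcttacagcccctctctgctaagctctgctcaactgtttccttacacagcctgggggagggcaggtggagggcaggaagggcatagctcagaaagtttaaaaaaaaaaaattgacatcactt
The NF-kappaB motif was found in 2 of the 8 promoters, Ubd at 15 to 6 bases before the start and Atp8b4 at 218 to 209 bases before it, and in 7.61% of the 21627 promoters of protein-coding genes. The PU.1 motif GAGGAAGT (2.09% of all promoters) and the AP-1 motif TGANTCA (6.19%) were each found in the Atp8b4 promoter alone among the 8. The RUNX motif TGTGGT (13.1%) was found on the minus strand of the Runx1 promoter, where it reads ACCACA. The letters TATAAA (11.9%) were found in the Dhrs9 and Cd84 promoters, and the interferon-response motif (ISRE, 3.32%) in 0 of the 8. With matches in 0 to 2 of 8 promoters for each motif, these counts describe the windows searched.

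In eWAT, all 8 genes passed the filter on low counts,. The libraries of the 3 tissues held 9842813 to 27601208 counts each, and those of eWAT 11589675 to 22364963. Levels are given as CPM, the read counts scaled to the size of the library after correction by the trimmed mean of M values (TMM). Per kilobase of exon, Ubd had the highest level of the 8 in eWAT, with a median of 31.9 CPM per kb over the 24 libraries. Cd44 (8.85), Tnfaip2 (7.30) and Cd84 (4.55) followed. Dhrs9, Atp8b4 and Runx1 lay at 1.03, 0.845 and 0.542 CPM per kb, and Ipcef1 at 0.139. In FED-CTRL, the mean level of Ubd per kb stood at the 91.0th percentile of the genes tested and that of Ipcef1 at the 3.83rd. Ipcef1 had 8 to 153 counts in an eWAT library, so its values carry the largest counting error of the 8.

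The markers of the labelled tissues were present, with a summed level of 10 adipocyte genes between 11325 and 51231 CPM in eWAT. Of 9 epididymis and testis genes, the summed level was 133 CPM in CR20-CTRL mouse 4, 52.2 in CR20-CTRL mouse 5 and 26.6 in CR20-HFD mouse 6, and at most 0.23 CPM in the other 21 eWAT libraries. The summed level of 12 macrophage genes was 10076 CPM in FED-HFD mouse 23, where the adipocyte genes were at 11325 CPM, the lowest of all libraries. Of 6 hepatocyte genes, Apoa1 (log2FC 6.49) and Ttr (6.19), named after their values were seen, rose in eWAT in FED-HFD vs FED-CTRL. The log2FC of the 6 ran from -2.07 to 6.49, and 0 were called lower. The mean log2 CPM of the 6 was 6.05 in FED-HFD mouse 10, 3.88 in FED-HFD mouse 13 and 5.44 in CR20-CTRL mouse 5, and at most 3.13 in the other 21 libraries. The summed level of the 6 gave another order, with 796 CPM in FED-HFD mouse 10 and 162 CPM in FED-HFD mouse 13. It was highest in CR20-HFD mouse 32 (988 CPM) and CR20-CTRL mouse 33 (953 CPM). Mouse 13 was the second highest FED-HFD mouse for Dhrs9, Runx1, Atp8b4 and Cd44. The part of hepatocyte RNA in these levels was not tested. Results are also given without the libraries of epididymis RNA and without mouse 23 where that moves them. Counts of cell-type markers are given with all libraries only, mouse 23 included.

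**Figure D1:**
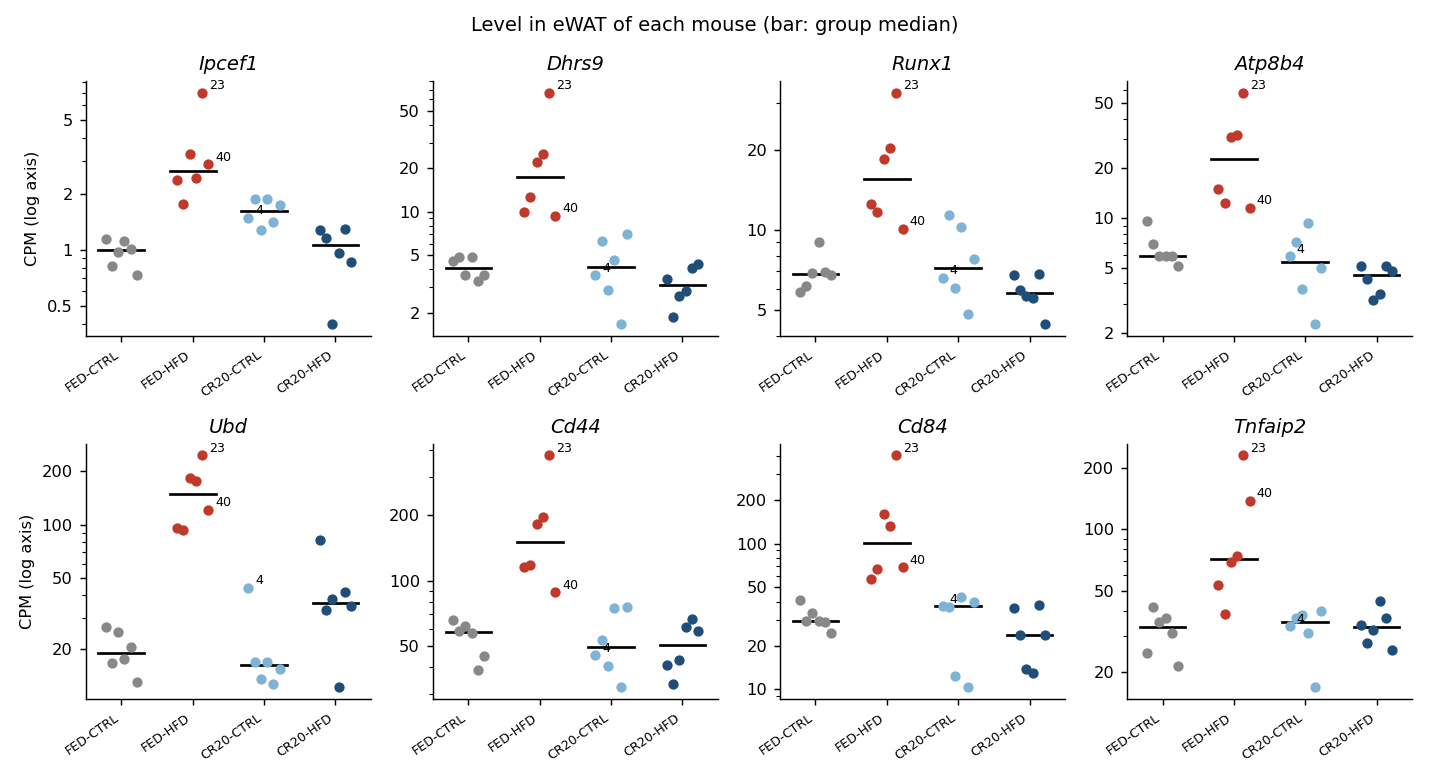
Level of the 8 genes in eWAT, in CPM on a log axis, with 1 point per mouse (n = 6 per group), a bar at the group median and the animal numbers 23, 40 and 4 printed beside those mice. The FED-HFD mice lie above the FED-CTRL mice for every gene but Tnfaip2, mouse 23 is the highest for all 8, and for Ubd the CR20-HFD median of 36.4 CPM lies above the CR20-CTRL median of 16.1 CPM.

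The transcription factor gene Runx1 had a level of 5.87 to 9.05 CPM in FED-CTRL (median 6.84) and of 10.1 to 33.0 CPM in FED-HFD (median 15.6). Its range was 4.81 to 11.4 CPM in CR20-CTRL (median 7.19) and 4.41 to 6.81 CPM in CR20-HFD (median 5.80). All FED-HFD mice lay above all FED-CTRL and all CR20-HFD mice, but not above all CR20-CTRL mice. The log2 fold change (log2FC) was 1.35 ± 0.24 (SE) in FED-HFD vs FED-CTRL, or 2.55-fold, and -0.41 ± 0.24 in CR20-HFD vs CR20-CTRL. In the order of mean log2 levels, FED-HFD was followed by CR20-CTRL, FED-CTRL and CR20-HFD, and the step from CR20-CTRL to FED-CTRL was smaller than the spread between mice.

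Of the 2 surface receptors, Cd44 had the higher level per kb. It stood at 38.9 to 65.8 CPM in FED-CTRL (median 58.2), at 88.3 to 378 CPM in FED-HFD (median 151), at 32.3 to 75.5 CPM in CR20-CTRL (median 49.3) and at 33.4 to 66.9 CPM in CR20-HFD (median 50.7). The FED-HFD mice did not overlap any other group, and the other 3 groups overlapped each other. Its log2FC was 1.72 ± 0.29 with the HFD in FED mice and -0.08 ± 0.28 in CR20 mice. Cd84 stood at 24.3 to 40.9 CPM in FED-CTRL (median 29.6) and at 57.2 to 402 CPM in FED-HFD (median 100.2). In the CR20 mice it stood at 10.4 to 43.1 CPM on CTRL (median 37.1) and at 13.0 to 38.2 CPM on HFD (median 23.5). Here too the FED-HFD mice lay above all the others, and both CR20 groups held mice well below the lowest FED-CTRL mouse. The log2FC of Cd84 was 2.25 ± 0.44 in FED and -0.28 ± 0.43 in CR20 mice.

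Ipcef1, the cytohesin partner, was the member with the fewest counts. Its level was 0.732 to 1.14 CPM in FED-CTRL (median 0.992), 1.77 to 7.02 CPM in FED-HFD (median 2.66), 1.28 to 1.89 CPM in CR20-CTRL (median 1.61) and 0.396 to 1.30 CPM in CR20-HFD (median 1.06). It was the only member for which the groups on the CTRL diet did not overlap, with all CR20-CTRL mice above all FED-CTRL mice and a log2FC of 0.74 ± 0.29 in CR20-CTRL vs FED-CTRL. The log2FC with the HFD was 1.77 ± 0.29 in FED mice and -0.71 ± 0.30 in CR20 mice, where the HFD median lay below the CTRL median.

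Atp8b4, the P4-ATPase gene, had a level of 5.08 to 9.65 CPM in FED-CTRL (median 5.86) and of 11.5 to 57.7 CPM in FED-HFD (median 23.0). In the CR20 mice its level was 2.26 to 9.31 CPM on CTRL (median 5.43) and 3.17 to 5.11 CPM on HFD (median 4.52). The FED-HFD mice lay above all other mice, and no CR20-HFD mouse passed the FED-CTRL median. The log2FC was 2.02 ± 0.35 in FED and -0.37 ± 0.35 in CR20 mice.

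Dhrs9, the retinol and steroid dehydrogenase gene, had a level of 3.31 to 4.85 CPM in FED-CTRL (median 4.09), 9.36 to 66.7 CPM in FED-HFD (median 17.3), 1.65 to 7.01 CPM in CR20-CTRL (median 4.14) and 1.86 to 4.31 CPM in CR20-HFD (median 3.13). The FED-HFD mice again lay above all the others, with mouse 23 at 2.68 times the next mouse of its group, the largest such ratio of the 8 genes. The log2FC was 2.55 ± 0.41 (5.86-fold) in FED and -0.44 ± 0.41 in CR20 mice.

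Ubd had the largest log2FC of the 8 in FED mice and the only one above 0.1 in CR20 mice. The 6 FED-HFD mice had 93.5, 95.2, 121, 176, 182 and 245 CPM, against 12.9 to 26.5 CPM in FED-CTRL (median 19.1). In CR20-CTRL, 5 mice had 12.6 to 17.0 CPM and mouse 4 had 44.0 CPM. In CR20-HFD, mouse 32 had 12.2 CPM, mouse 6 had 81.8 CPM and the other 4 had 32.9 to 41.6 CPM. Thus 5 of the 6 CR20-HFD mice lay above 5 of the 6 CR20-CTRL mice, and all of them lay below the lowest FED-HFD mouse. The log2FC was 2.94 ± 0.37 (7.69-fold) in FED mice and 1.01 ± 0.35 (2.01-fold) in CR20 mice. In CR20 mice it ranged from 0.68 (without CR20-HFD mouse 6) to 1.41 (without CR20-CTRL mouse 4) with each mouse left out in turn. Without the 3 libraries with epididymis markers, which include both of these mice, it was 1.12 ± 0.32.

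Tnfaip2, the TNF-induced gene, had a level of 21.4 to 41.6 CPM in FED-CTRL (median 33.2), 38.5 to 230 CPM in FED-HFD (median 71.5), 16.9 to 39.8 CPM in CR20-CTRL (median 35.2) and 25.7 to 44.7 CPM in CR20-HFD (median 33.3). FED-HFD mouse 11, at 38.5 CPM, lay within the range of the other 3 groups, so that Tnfaip2 was the only member with overlapping FED groups. Its order within FED-HFD also differed, with mouse 40 second at 138 CPM, a mouse that was the lowest of the group for Dhrs9, Runx1, Atp8b4 and Cd44. The log2FC was 1.66 ± 0.32 in FED and 0.04 ± 0.31 in CR20 mice.

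**Figure D2:**
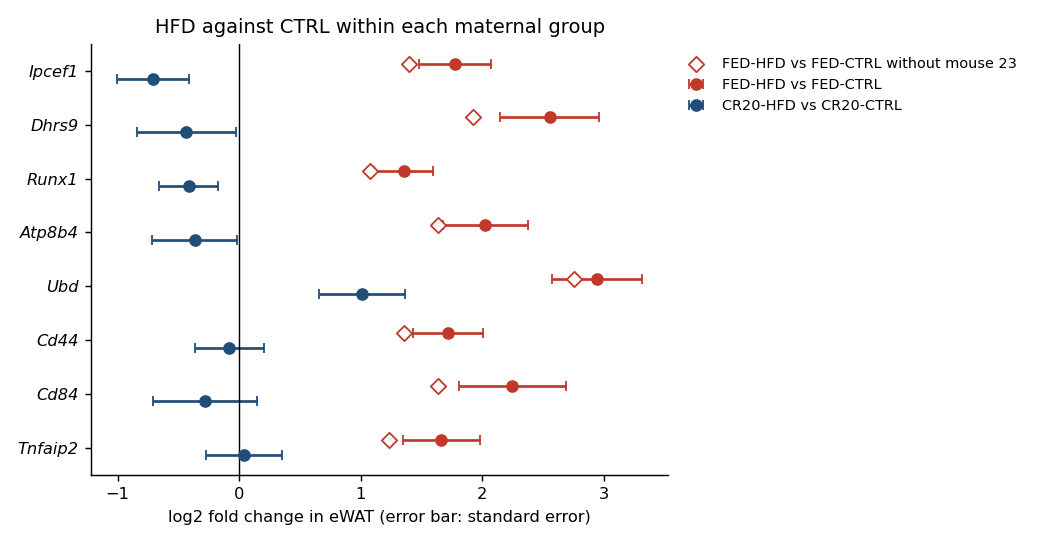
Log2FC of the 8 genes in eWAT with its SE (bars, 6 mice per group) for the HFD against the CTRL diet in FED mice (red) and in CR20 mice (blue), with open diamonds for the FED comparison without mouse 23. The FED values lie between 1.35 and 2.94, those without mouse 23 between 1.08 and 2.75, and those of the CR20 mice between -0.71 and 0.04 except for Ubd at 1.01.

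The median log2FC of the 8 genes was 1.90 for the HFD in FED mice, where that of all tested genes was -0.0016. The FED groups did not overlap for 7 of the 8, and 4.06% of all tested genes were higher in FED-HFD without overlap. The genes were chosen on this contrast, so nothing is read from these values. In CR20-HFD vs CR20-CTRL the median over the 8 was -0.32, and the median over all tested genes was -0.02. The groups did not overlap for 0 of the 8, against 0.0689% of all genes higher and 0.0438% lower. The comparison CR20-HFD vs FED-HFD shares its FED-HFD mice with the first one, and gave log2FC from -2.93 (Dhrs9) to -1.58 (Tnfaip2) with 7 of 8 genes not overlapping, where 4.17% of all genes were lower without overlap. In CR20-CTRL vs FED-CTRL the 7 genes other than Ipcef1 lay between -0.24 and 0.17. Ipcef1 was the 1 gene of 8 without overlap there, and 0.0814% of all genes were higher in CR20-CTRL in this way. The difference between the responses of the CR20 and FED mice, the interaction, lay between -2.99 (Dhrs9) and -1.62 (Tnfaip2), again on the values that chose the genes.

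FED-HFD mouse 23 was the highest of all 24 mice for each of the 8 genes. Without it, the log2FC in FED mice fell to 1.40 for Ipcef1, 1.93 for Dhrs9, 1.08 for Runx1, 1.64 for Atp8b4, 1.36 for Cd44, 1.63 for Cd84 and 1.23 for Tnfaip2, and only to 2.75 for Ubd. All 8 were still above 1, and the median fell from 1.90 to 1.52. Without mice 23 and 40 together, the range was 0.88 to 2.79. Animal numbers fell into 3 ranges (under 20, 20 to 39, and 40 and above), whose meaning the labels do not give. The FED-HFD mean was above the FED-CTRL mean for all 8 genes within each range. The median difference in log2 CPM was 1.37, 2.99 and 1.39. The middle range held 1 mouse of each group and the last 1 FED-HFD mouse against 2 FED-CTRL mice. The fits without mice and the values by range reuse the contrast and the mice that chose the genes. Their direction was thus largely set by that choice, and they are a description.

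The 8 genes also varied together between mice of 1 group. After each group's mean was subtracted, Pearson's r over the 24 eWAT libraries was above 0 for all 28 pairs, with a median of 0.61 and a range of 0.23 to 0.91. Without the FED-HFD mice the median was 0.48. Ubd and Tnfaip2 were the least like the rest, with a median r with the other 7 of 0.39 and 0.50. The points of these correlations share the library and its cell makeup, and they are a description.

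Among the eWAT genes whose levels were most like the mean of the 8 over the 24 libraries were, in order, Hk3, Nckap1l, Slc15a3, Cd180, Cyth4, Lcp1, Cd68, Mpeg1 and Dock2, with Pearson's r from 0.988 to 0.979. Hk3 encodes a hexokinase found mainly in blood cells, and Nckap1l, Cyth4, Lcp1 and Dock2 encode proteins of the blood cell cytoskeleton and of its GTPase switches. Mpeg1 encodes a pore-forming protein of macrophages, Cd180 a receptor related to the Toll-like receptors, Slc15a3 a lysosomal peptide and histidine transporter, and Cd68 a lysosomal macrophage protein. Their log2FC in FED-HFD vs FED-CTRL lay between 1.60 (Cyth4) and 2.27 (Hk3), and in CR20-HFD vs CR20-CTRL between -0.39 (Mpeg1) and -0.14 (Hk3). They were ranked by the same libraries, so these values carry no test.

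Some macrophage markers moved with the 8 genes. In whole tissue, more cells of a type and more RNA per cell cannot be told apart. The summed level of the 12 macrophage genes was 1648 to 2363 CPM in FED-CTRL, 2335 to 10076 CPM in FED-HFD, 1351 to 2714 CPM in CR20-CTRL and 1424 to 2299 CPM in CR20-HFD, and none of the 12 was at 0 in every library of a group. By edgeR's quasi-likelihood test, 4 of the 12 rose in FED-HFD vs FED-CTRL, with an adjusted p-value no higher than 0.055 and a log2FC of 1 or more, which 4.18% of all tested genes passed. They were Cd68 (log2FC 2.11), Adgre1 (1.79), which encodes the F4/80 antigen, Lyz2 (1.40), which encodes lysozyme, and Itgam (1.06), an integrin subunit of myeloid cells. The log2FC of the 12 ran from -0.19 to 2.11, with a median of 0.72, and 0 were called lower. Of 10 genes of lipid-associated macrophages, 5 rose, namely Gpnmb (3.28), Trem2 (2.66), Lgals3 (2.45), Itgax (2.25) and Cd9 (1.24). The log2FC of the 10 ran from -0.37 to 3.28, with a median of 1.68, and 0 were called lower. In CR20-HFD vs CR20-CTRL, 0 genes of either list passed, and neither did any tested gene by edgeR or by DESeq2, while 962 genes had an unadjusted p-value under 0.05. In FED-HFD vs FED-CTRL, 0 of the tested markers passed for T cells (7), B cells (7), dendritic cells (7), NK cells (6), mast cells (6), neutrophils (1), endothelial cells (6) and mesothelial cells (5). Of 7 genes of stromal progenitors, Lum rose (1.02). The part of macrophage number in the levels of the 8 genes was not tested.

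Each gene was also set against the macrophage markers within each mouse, as its log2 CPM minus the mean log2 CPM of the 12 genes. This difference was higher in FED-HFD than in FED-CTRL for all 8, by 0.49 (Runx1), 0.68 (Tnfaip2), 0.80 (Ipcef1), 0.83 (Cd44), 1.05 (Atp8b4), 1.15 (Cd84), 1.43 (Dhrs9) and 2.15 (Ubd) on the log2 scale. Its FED-HFD and FED-CTRL ranges overlapped for Runx1, Atp8b4, Cd44 and Tnfaip2. The size depends on the marker list, as the mean log2 CPM of the 12 genes was 6.30 in FED-CTRL and 7.04 in FED-HFD. For the 10 genes of lipid-associated macrophages it was 7.28 and 8.55, and the 8 genes were not set against that list. The FED contrast is the one that chose the genes, so the differences of the 8 genes are a description. In the CR20 mice the change ran from -0.58 (Ipcef1) to 0.19 (Tnfaip2), except for Ubd at 1.08. Within the 6 FED-HFD mice, Pearson's r between a gene and the macrophage mean was 0.856 (Cd44) to 0.961 (Ipcef1). Spearman's rho was 0.771 to 0.943, and both are given with no test, since the genes were chosen on these libraries. Without the 2 mice farthest from the median, 23 and 11, r was 0.400 (Tnfaip2) to 0.915 (Ubd). The relation thus rested on those mice for several genes. In the other groups r spread more widely or was lower. It ran from -0.529 (Runx1) to 0.886 (Cd84) in FED-CTRL and from -0.066 (Ubd) to 0.913 (Tnfaip2) in CR20-CTRL. In CR20-HFD it ran from 0.275 (Ubd) to 0.689 (Ipcef1).

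**Figure D3:**
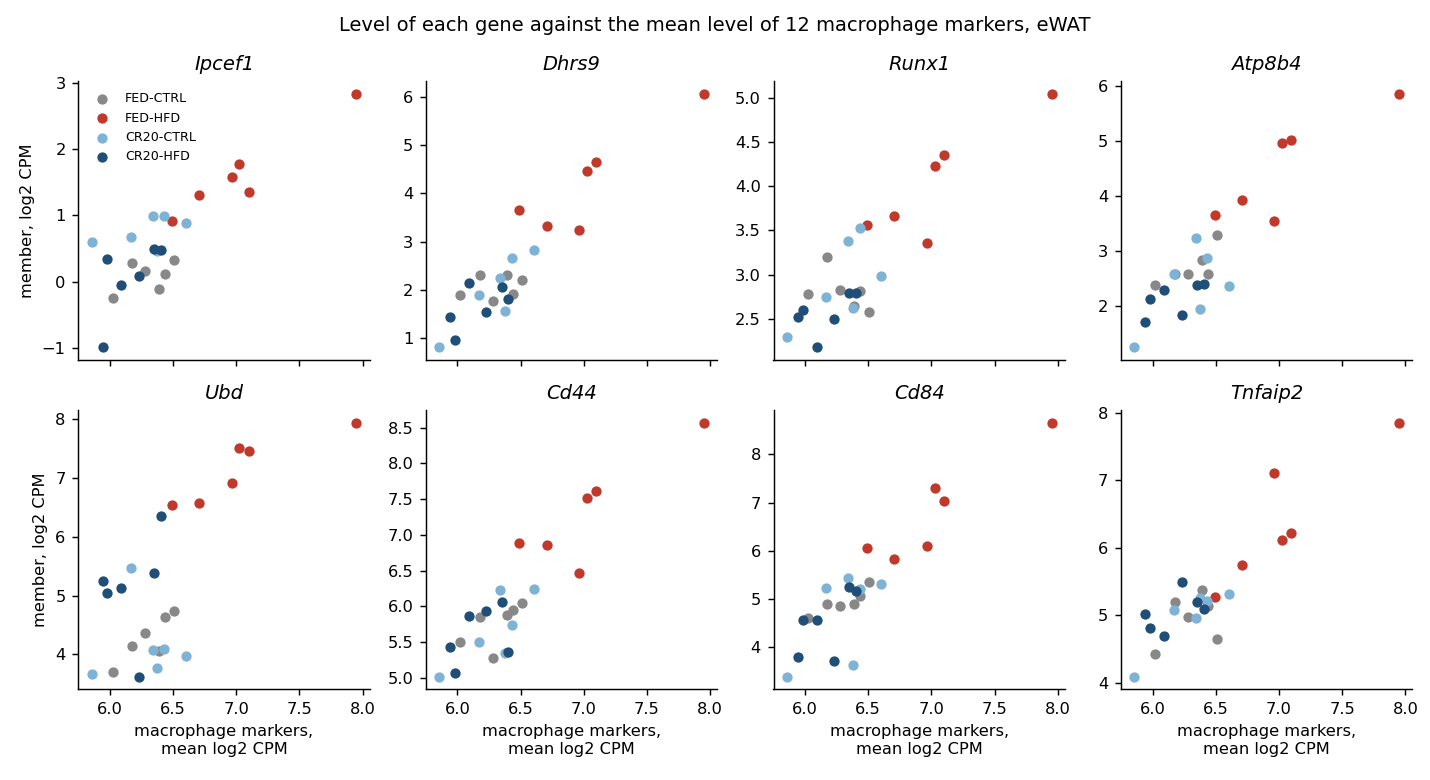
Level of each of the 8 genes (log2 CPM, vertical) against the mean log2 CPM of 12 macrophage markers (horizontal) in eWAT, with 1 point per mouse coloured by group. The FED-HFD mice lie to the right of most others, with mouse 23 farthest, and stand above all FED-CTRL mice for every gene but Tnfaip2.

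The relatives and partners of the 8 genes were followed in 8 lists of 122 other genes, of which 109 were tested in eWAT. By edgeR's quasi-likelihood test, 11 of the 109 rose in FED-HFD vs FED-CTRL, where 4.18% of all tested genes rose, and 2 fell, where 0.514% of all did, 13 in all. The median log2FC of the 109 was 0.21. Comparing the diets in CR20 mice, or the CTRL groups, 0 of the 109 passed, and 0 of all tested genes did. In CR20-HFD vs FED-HFD, 15 of the 109 fell and 0 rose, where 4.78% of all tested genes fell and 0.714% rose. The interaction was called for 8 of the 109, all of them below 0, where 2.23% of all genes were. Without mouse 23 the count of 13 became 6, and the interaction gave 0 calls without any 1 of 9 other mice and 0 by voom without quality weights.

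The SLAM family held the largest share of called genes among the 8 lists. Of 9 tested genes other than Cd84, 4 rose in FED-HFD vs FED-CTRL. Ly9, a self-binding SLAM receptor, went from 6.95 to 10.8 CPM in FED-CTRL to 14.0 to 98.0 CPM in FED-HFD, with a log2FC of 2.04 ± 0.38 (edgeR adjusted p = 0.00297). The log2FC was 1.70 ± 0.32 for Slamf8, a receptor of myeloid cells (adjusted p = 0.00297), and 1.36 ± 0.30 for the self-binding Slamf7 (adjusted p = 0.00572). Cd48, a ligand of Cd244a, had a log2FC of 1.32 ± 0.24 (adjusted p = 0.00297). Slamf9 had a log2FC of 0.78 ± 0.19 (adjusted p = 0.00941), under the minimum size of change, while the lymphocyte receptor Slamf6 (0.63 ± 0.43, adjusted p = 0.372) and Cd244a (0.21 ± 0.40, adjusted p = 0.786) did not pass. The interaction was called for Ly9 (-2.24), Slamf8 (-1.95) and Cd48 (-1.39). Without mouse 23, Ly9 (1.43), Slamf8 (1.45) and Slamf7 (1.09) still passed and Cd48 (0.98) did not.

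Among the partners of Ipcef1, the log2FC was 1.60 ± 0.29 for Cyth4, the cytohesin of blood cells (edgeR adjusted p = 0.00297), and 1.13 ± 0.21 for Cytip, which encodes a cytohesin-binding protein (adjusted p = 0.00297). These were 2 of 12 genes, and Psd4, an activator of Arf6, reached 1.00 ± 0.23 (adjusted p = 0.00827), just under the minimum log2FC. The interaction was called for all 3, at -1.88, -1.16 and -1.23. Without mouse 23, Cyth4 (1.12) passed and Cytip (0.95) did not, and the interaction was called for Cyth4 and for neither Cytip nor Psd4.

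Of 15 tested hyaluronan genes and other ligands of Cd44, 1 rose, the hyaluronan receptor gene Hmmr (1.45 ± 0.36, edgeR adjusted p = 0.0114), whose product also binds the mitotic spindle. Without mouse 23 its log2FC was 0.97 and it was not called. Spp1, which encodes osteopontin, had a log2FC of 2.11 ± 0.70 (adjusted p = 0.0563), just past the threshold, and fell by 2.91 in CR20-HFD vs FED-HFD (adjusted p = 0.0104). Without mouse 23 the first value was 1.09 and the second comparison did not pass. Of 22 TNF and NF-kappaB genes, 4 rose. The chemokine gene Ccl2 (1.23 ± 0.28), the TNF receptor gene Tnfrsf1b (1.04 ± 0.24) and Tnfaip8l2 (1.45 ± 0.28) were among them, and the fourth was Tnf, which was named after its values were seen. Without mouse 23, Ccl2 (1.05) passed and Tnfrsf1b (0.70), Tnfaip8l2 (0.94) and Tnf did not.

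The families of Dhrs9, Runx1, Atp8b4 and Ubd did not hold other genes that rose past the thresholds. Of 16 retinoid and short-chain dehydrogenase genes, 0 rose and 2 fell in FED-HFD vs FED-CTRL. They were Rdh12, a retinol dehydrogenase gene (-1.13 ± 0.28, edgeR adjusted p = 0.0118), and Rbp4, which encodes the retinol carrier of blood (-1.21 ± 0.37, adjusted p = 0.0377). Without mouse 23, Rdh12 (-1.07) passed and Rbp4 (-0.98) did not. Rdh12 had a similar log2FC in CR20 mice, -1.09 ± 0.27, where its adjusted p-value was 0.789. Of 8 genes of the RUNX group, 0 passed, with Runx2 at 0.92 ± 0.35 (adjusted p = 0.0938), Runx3 at 0.36 ± 0.35 (adjusted p = 0.553) and the shared partner gene Cbfb at 0.53 ± 0.16 (adjusted p = 0.0365). Runx2 fell by 1.29 in CR20-HFD vs FED-HFD (adjusted p = 0.0174), a call that was lost without mouse 23. Of 13 P4-ATPase and CDC50 genes, 0 passed, and the nearest relatives Atp8b1 (0.13 ± 0.17) and Atp8b2 (0.10 ± 0.17) had log2FC close to 0. Of 14 genes of FAT10 conjugation, ISG15 and the immunoproteasome, 0 passed, with log2FC from 0.05 to 0.51 in FED and -0.16 to 0.48 in CR20 mice.

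**Figure D4:**
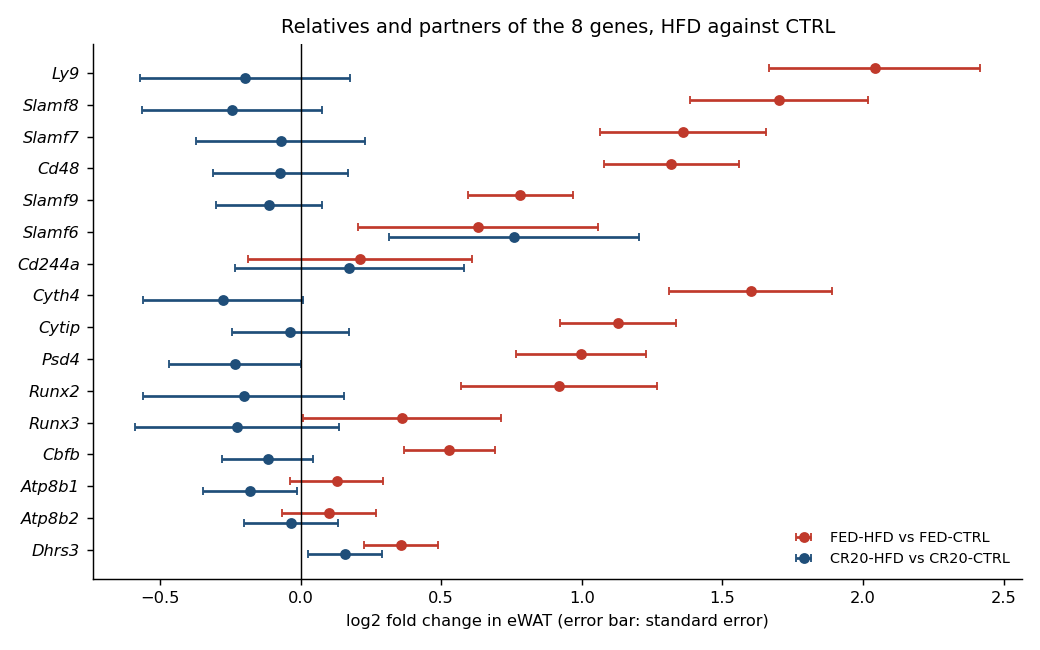
Log2FC with its SE in eWAT for 16 relatives and partners of the 8 genes, on the HFD against the CTRL diet in FED mice (red) and in CR20 mice (blue), 6 mice per group. Ly9, Slamf8, Cyth4, Slamf7, Cd48 and Cytip lie above 1 in FED mice and below 0 in CR20 mice, and Atp8b1 and Atp8b2 lie near 0 in both.

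Of the 16 nearest tested genes with a name, 1 on each side of each member, 3 rose in FED-HFD vs FED-CTRL. Of all tested genes, 4.18% rose. Exoc3l4, 10746 bases from Tnfaip2 and like it of the Sec6 family, had 0.995 to 1.99 CPM in FED-CTRL and 3.21 to 5.14 CPM in FED-HFD, without overlap. Its log2FC was 1.49 ± 0.37 (edgeR adjusted p = 0.0115) and 1.44 without mouse 23, and its log2FC in CR20 mice was -0.18 ± 0.36. The others were Spc25, a kinetochore gene 174202 bases from Dhrs9 (1.42 ± 0.27, adjusted p = 0.00314), and Cd48, 134437 bases from Cd84. Slamf6, on the other side of Cd84 at 25021 bases, did not pass.

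In liver, 6 of the 8 genes passed the filter on low counts, and Ipcef1 (at most 12 counts in a library) and Dhrs9 (at most 4) did not. By edgeR's quasi-likelihood test, 0 of the 6 passed the thresholds in any of the 4 comparisons or the interaction, and by DESeq2 0 did too. At an unadjusted p-value under 0.05 there were 2 of 6 in FED-HFD vs FED-CTRL (Ubd and Cd44) and 1 (Ubd) in each of CR20-HFD vs FED-HFD and the interaction, where 6.66%, 3.58% and 1.76% of all tested genes were. Of all tested liver genes, 0.0943% passed in FED-HFD vs FED-CTRL and 0.377% in CR20-HFD vs CR20-CTRL, while 0 passed in the other comparisons. The smallest p-values were those of Ubd and Cd44 in FED-HFD vs FED-CTRL.

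Ubd in liver stood at 3.04 to 18.1 CPM in FED-CTRL (median 8.89) and at 12.5 to 128 CPM in FED-HFD (median 33.0). In CR20-CTRL it ranged from 1.57 to 40.3 CPM (median 6.50) and in CR20-HFD from 3.89 to 27.4 CPM (median 8.41). Of the FED-HFD mice, 4 lay above every FED-CTRL mouse and mouse 40 was the highest, at 2.61 times the next. The log2FC was 2.26 ± 0.69, with an unadjusted p-value of 0.00299, an edgeR adjusted p-value of 0.350 and a two-sided exact permutation p-value of 0.00649. Over the alternatives, the log2FC ranged from 1.60 to 2.55 and the adjusted p-value from 0.0271 to 0.721. The lowest of these came from voom with quality weights (limma), which the study's methods use, and there Ubd was called (2.26 ± 0.47). It was 1 of 37 genes called in this comparison by that fit, where the main fit called 13. Without FED-HFD mice 23 and 40, the log2FC was 1.40 ± 0.69 (adjusted p = 0.926). In CR20 mice it was -0.09 ± 0.67, and the interaction was -2.35 ± 0.95 (unadjusted p = 0.0203, adjusted p = 0.999).

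Cd44 in liver stood at 5.76 to 10.3 CPM in FED-CTRL (median 8.60) and at 10.3 to 14.8 CPM in FED-HFD (median 12.0), the highest FED-CTRL mouse being just below the lowest FED-HFD mouse. It was the 1 gene of the 6 without overlap in this comparison, where 0.334% of all tested genes were higher without overlap. The log2FC was 0.52 ± 0.17 (unadjusted p = 0.00584, edgeR adjusted p = 0.440), and the exact permutation p-value of 0.00216 was the smallest that 6 mice against 6 allow. In CR20 mice the log2FC was 0.08 ± 0.17, with ranges of 7.89 to 14.8 CPM on CTRL and 7.80 to 14.6 CPM on HFD. The interaction was -0.44 ± 0.24 (adjusted p = 0.999).

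The other 4 genes differed by less in liver. The log2FC in FED-HFD vs FED-CTRL was 0.31 ± 0.17 for Tnfaip2 (edgeR adjusted p = 0.864), 0.55 ± 0.38 for Runx1 (adjusted p = 0.951), -0.05 ± 0.23 for Cd84 (adjusted p = 1.00) and -0.58 ± 0.34 for Atp8b4 (adjusted p = 0.886). For Cd84, an interval of 2 SE on either side ran from -0.52 to 0.41. For Atp8b4 the log2FC in CR20 mice was -0.47 ± 0.33 (adjusted p = 0.620). Runx1 in liver had 3 to 30 counts per library, and its log2FC in CR20 mice was 0.75 ± 0.36 (adjusted p = 0.524).

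In pituitary, 6 of the 8 genes passed the filter, and Atp8b4 (at most 17 counts) and Ubd (at most 30) did not. Per kb, Tnfaip2 had the highest level, with a median of 3.80 CPM per kb over the 24 libraries, followed by Cd44 (0.841), Ipcef1 (0.731) and Runx1 (0.336). Ipcef1 was thus at a higher level per kb in pituitary than in eWAT (0.139) and in liver (0.0345). By edgeR's quasi-likelihood test, 0 of the 6 passed an adjusted p-value under 0.05 in any comparison or the interaction, as did 0 of all 16657 tested genes. DESeq2 called 0 of the 6 as well, and Cd44 in CR20-HFD vs FED-HFD was the 1 gene of the 6 with an unadjusted p-value under 0.05, where 6.77% of all tested genes were.

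Ipcef1 in pituitary ranged from 4.07 to 9.32 CPM over all 24 mice, with group medians of 6.36 in FED-CTRL, 6.71 in FED-HFD, 6.47 in CR20-CTRL and 7.08 in CR20-HFD. Its log2FC was 0.08 ± 0.16 in FED and 0.02 ± 0.15 in CR20 mice, with intervals of 2 SE from -0.23 to 0.40 and from -0.29 to 0.33. Cd44 had the smallest p-values in pituitary, with a log2FC of -0.40 ± 0.15 in CR20-HFD vs FED-HFD (unadjusted p = 0.0109, edgeR adjusted p = 0.591, exact permutation p = 0.0173). Its levels were 4.10 to 6.13 CPM in CR20-HFD and 4.86 to 7.32 CPM in FED-HFD, with overlap. Dhrs9, with 0 to 14 counts per library, had a log2FC of 0.87 ± 0.51 in FED-HFD vs FED-CTRL (adjusted p = 0.608). Tnfaip2 lay between 15.6 and 24.0 CPM in 23 mice and at 41.3 CPM in FED-HFD mouse 40, and its log2FC in FED mice was 0.24 ± 0.15 (adjusted p = 0.624). Runx1 (0.17 ± 0.16) and Cd84 (0.16 ± 0.34) had adjusted p-values of 0.784 and 0.928 in the same comparison.

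Ubd in pituitary was at 0 counts in all 6 FED-CTRL mice, while 5 of the 6 FED-HFD mice had counts, from 0.181 to 1.31 CPM, with mouse 40 the highest. In CR20-CTRL, 3 mice were at 0 and the highest had 0.100 CPM, and in CR20-HFD, 2 were at 0 and the highest had 0.254 CPM. A level of 3 counts, taken as the smallest detectable, is 0.109 to 0.164 CPM in these libraries and covers counting error only. With no filter on low counts, Ubd was called in FED-HFD vs FED-CTRL (edgeR adjusted p = 0.00734), and a fold against a group at 0 is not given.

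**Figure D5:**
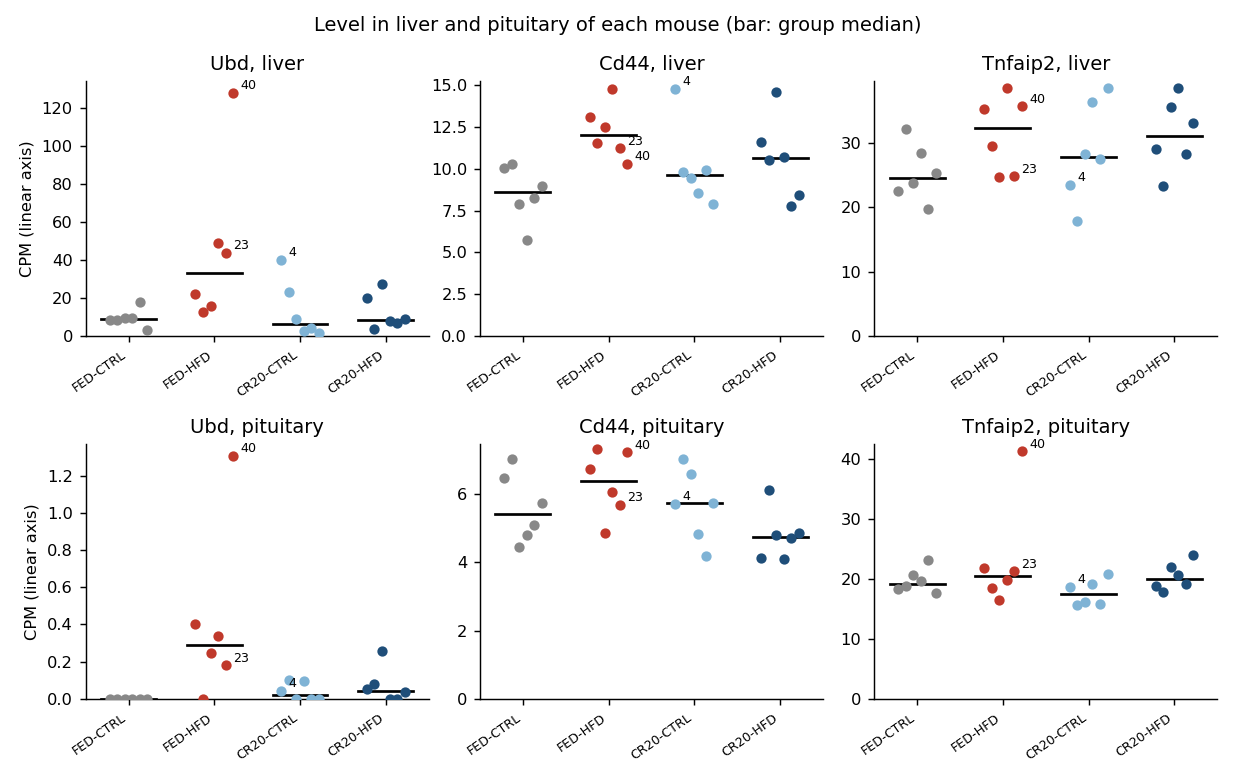
Level of Ubd, Cd44 and Tnfaip2 in liver (top) and pituitary (bottom), in CPM on a linear axis, with 1 point per mouse (n = 6 per group), a bar at the group median and the animal numbers 23, 40 and 4 beside those mice. FED-HFD mouse 40 is the highest of its group for Ubd in both tissues (128 and 1.31 CPM) and for Tnfaip2 in pituitary (41.3 CPM).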

How the data were processed

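RNA from eWAT, liver and pituitary of 24 mice was analysed as the read counts per Ensembl gene that the authors deposited, made by trimming (Trimmomatic), alignment (STAR) to GRCm39 and featureCounts (Subread). The counts are whole numbers without normalization. Library preparation was stranded, but the strand setting of the counting is not given in the sources used here, so genes that overlap a member on the other strand may share its reads (Oprm1 with Ipcef1, at most 3 counts, and Gm26626 with Runx1, 5 to 36 counts in eWAT). Names, positions and lengths came from GENCODE M39 (54749 of 55416 genes matched), and promoters from the GRCm39 sequence. Each tissue's 24 libraries entered 1 fit by edgeR 4.0.16 in R 4.3.3 (filterByExpr, TMM, glmQLFit, glmQLFTest, Benjamini-Hochberg adjustment), which tested 15964 genes in eWAT, 13787 in liver and 16657 in pituitary. Calls in eWAT and liver needed an adjusted p-value no higher than 0.055 and a log2FC of 1 or more in size, those in pituitary an adjusted p-value under 0.05. Log2 CPM used a prior count of 2, and an SE is the log2FC divided by the square root of F. For single genes, exact permutation p-values (two-sided) came from the 924 divisions of 12 mice. Alternatives were limma 3.58.1 voom with and without quality weights, DESeq2 1.42.0, its size factors, other filters, other sample sets, a covariate, robust estimation and each mouse left out. Counts were also simulated with 100 genes raised in FED-HFD by a log2FC of 1 and 100 by a log2FC of 2. In FED-HFD vs FED-CTRL, 70 and 93 of these were recovered in eWAT, among 15825 genes. In liver 59 and 96 were recovered, and in pituitary 88 and 99. Recovery needed an adjusted p-value no higher than 0.05 and no minimum log2FC, so it does not give the rate under the eWAT and liver thresholds.

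The members and the gene lists were chosen with earlier results of these data known. Beside the members, the text names the 3 genes of each list with the smallest p-values in eWAT FED-HFD vs FED-CTRL, close paralogs, the nearest tested gene on each side, the 10 genes most like the members' mean (1 of them is not reported here), and markers of cell types. Tnf was added to complete a count. Any pair of libraries of a group differed in the counts of at least 18735 genes, so none was counted as a duplicate.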

Additional observations from a re-analysis of the deposited data

Results flagged for a closer look

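Over the 8 genes, 3 tissues and 4 groups, 80 sets of 6 mice were examined for a mouse that stood apart by an unusually wide gap to the next mouse (Dixon's test at the 95% level), and 6 were found where chance alone gives about 4. In eWAT they were Ipcef1 in CR20-HFD mouse 31 (0.396 CPM, low), Ubd in CR20-CTRL mouse 4 (44.0 CPM, high) and Tnfaip2 in CR20-CTRL mouse 48 (16.9 CPM, low). In liver, Cd44 stood high in CR20-CTRL mouse 4 (14.8 CPM). In pituitary, Runx1 stood high in CR20-CTRL mouse 48 (5.48 CPM) and Tnfaip2 in FED-HFD mouse 40 (41.3 CPM). Mouse 4 had the highest summed level of epididymis and testis genes in eWAT. By the mean log2 CPM of the same genes, CR20-HFD mouse 6 was highest (-1.64) and mouse 4 lay at -2.08. Without the 3 libraries that held such RNA, the log2FC of Ubd in CR20-HFD vs CR20-CTRL was 1.12.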

How the results depend on the processing

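In liver, 0 member calls became 1 (Ubd) by voom with quality weights, and in pituitary 0 became 1 (Ubd) with no filter. Both calls were in FED-HFD vs FED-CTRL, where the calls over all genes went from 13 to 37 and from 0 to 55. Of the list genes in eWAT, 13 were called in FED-HFD vs FED-CTRL, 6 without FED-HFD mouse 23 and 6 to 17 with each mouse left out. The comparison CR20-HFD vs FED-HFD gave 15 calls, 9 by voom with quality weights, 7 without FED-HFD mouse 23 and 7 to 17 with each mouse left out. The 8 interaction calls became 3 by voom with quality weights, 0 by voom without them and 0 to 11 with each mouse left out. They were 0 in 9 fits, each without FED-CTRL mouse 15, 16, 41 or 42, CR20-CTRL mouse 5, 47 or 49, or CR20-HFD mouse 31 or 32, and 0 without the 3 libraries with epididymis RNA, an alternative chosen after seeing the data, as was leaving out mice 23 and 40. Over all eWAT genes, the interaction was called for 363 genes, for 0 by voom without quality weights, 665 by DESeq2 and 0 without those 3 libraries, and FED-HFD vs FED-CTRL for 750 genes and 321 without mouse 23. CR20-CTRL vs FED-CTRL gave 0 genes by edgeR, 147 by DESeq2 and 1180 at an unadjusted p-value under 0.05. In pituitary, all 5 tests gave 0 genes in the main edgeR fit, and up to 371 by DESeq2. With each mouse left out, edgeR gave 0 to 540 genes in CR20-CTRL vs FED-CTRL, the most without FED-CTRL mouse 42. In FED-HFD vs FED-CTRL it gave 0 to 17, the most without FED-HFD mouse 11. Of 3271 alternative log2FC values of members, 130 changed sign, each past the thresholds in neither fit. No paired analysis was possible because the groups compared within a tissue hold different mice. The cause of these changes was not tested.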

Other observations

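Genes of the cell cycle also moved with the 8 genes in eWAT. By edgeR's quasi-likelihood test, 6 of 6 markers of cycling cells rose in FED-HFD vs FED-CTRL, where 4.18% of all tested genes did. They were Bub1 (spindle checkpoint kinase, log2FC 1.90), Birc5 (1.43), Ccnb1 (cyclin, 1.42), Mki67 (1.26), Top2a (topoisomerase, 1.25) and Cdk1 (1.11). In CR20-HFD vs FED-HFD, 5 of the 6 fell, where 4.78% of all tested genes did, and in CR20-HFD vs CR20-CTRL 0 passed. These counts include mouse 23 and are not given without it. Of 10 adipocyte genes, 0 passed in FED-HFD vs FED-CTRL, and Cfd (1.49) and Retn (1.02), which encode the secreted proteins adipsin and resistin, were higher in CR20-HFD than in FED-HFD.

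FED-HFD mouse 40 ranked differently by gene and tissue. It was the lowest of its group in eWAT for Dhrs9, Runx1, Atp8b4 and Cd44, the second highest there for Tnfaip2 (138 CPM), and the highest for Ubd in liver (128 CPM) and pituitary (1.31 CPM) and for Tnfaip2 in pituitary (41.3 CPM).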
